A study of Homo sapiens with 4 samples.

Results

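Transcripts of molecular chaperones, of the co-chaperones that work with them and of 2 heat shock transcription factors were followed across 4 RNA-seq libraries of HEK293 cells, an established human embryonic kidney line. The 40 genes were taken by symbol, out of 40188 genes with a value. By the compartment where their proteins work, 26 are cytosolic, 8 are in the endoplasmic reticulum (ER), 4 are mitochondrial and 2 are transcription factors, so the set is wider than the cytosol and the ER. The 4 libraries came from stable HEK293 lines with a doxycycline-inducible construct for MSI1, SRRM3, SRRM4 or nothing (empty vector), with 1 library per line. MSI1 is an RNA-binding protein of neural progenitors, and SRRM3 and SRRM4 are splicing regulators known for neuronal microexons. Every line, the empty vector line included, received 1 µg/mL doxycycline for 24 h, so an effect of the drug itself is shared by all 4. Whether a line is a single clone was not given in the sources used here. With 1 library per group there is no replicate spread and no test: a difference between a transgene and the empty vector cannot be told apart from a difference between stable lines.

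Cytosolic HSP70 and HSP90 proteins fold other proteins in cycles of ATP binding and hydrolysis. J proteins (HSP40) bring clients to HSP70, the HSP110 and BAG proteins release its nucleotide, and HSP90 co-chaperones pace the HSP90 cycle. HSF1 binds heat shock elements, inverted repeats of GAA, in the promoters of many cytosolic chaperone genes. ER chaperones such as BiP (HSPA5) and GRP94 (HSP90B1) are instead induced by the unfolded protein response, in which ATF6 binds ER stress elements together with NF-Y, and XBP1 and IRE1 act in parallel.

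These systems are known to act through different promoter elements, so the 250 bases before the RefSeq start of 6 members are shown, on build GRCh38.p14 and 5′ to 3′ on the gene's strand. Capitals mark a match to the heat shock element pair, GAANNTTC or TTCNNGAA, in the first 4, and to the ER stress element, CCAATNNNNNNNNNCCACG on either strand, in the last 2. HSPA1A (chr6:31815293-31815542, plus strand) and HSPA1B (chr6:31827488-31827737, plus strand) encode the inducible HSP70 and are printed together because they are near copies. HSPA8 (chr11:123062137-123062386, minus strand) encodes the constitutive HSP70, and CHORDC1 (chr11:90223050-90223299, minus strand) a co-chaperone of HSP90. HSPA5 (chr9:125241344-125241593, minus strand) and HSP90B1 (chr12:103930160-103930409, plus strand) encode the main ER chaperones.
HSPA1A promoter: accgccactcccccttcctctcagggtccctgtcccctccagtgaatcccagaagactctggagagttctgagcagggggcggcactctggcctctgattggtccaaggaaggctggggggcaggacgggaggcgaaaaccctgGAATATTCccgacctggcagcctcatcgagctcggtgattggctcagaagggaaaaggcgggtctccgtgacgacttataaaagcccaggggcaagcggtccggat
HSPA1B promoter: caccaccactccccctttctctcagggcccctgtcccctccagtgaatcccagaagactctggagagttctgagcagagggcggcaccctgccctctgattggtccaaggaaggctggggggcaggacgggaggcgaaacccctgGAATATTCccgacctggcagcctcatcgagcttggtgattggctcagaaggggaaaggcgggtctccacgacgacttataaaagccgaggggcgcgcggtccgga
HSPA8 promoter: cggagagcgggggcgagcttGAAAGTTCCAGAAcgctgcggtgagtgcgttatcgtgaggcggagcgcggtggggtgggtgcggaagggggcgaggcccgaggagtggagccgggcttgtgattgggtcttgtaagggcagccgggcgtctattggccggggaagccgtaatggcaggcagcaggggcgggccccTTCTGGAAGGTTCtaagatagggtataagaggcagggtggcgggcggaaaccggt
CHORDC1 promoter: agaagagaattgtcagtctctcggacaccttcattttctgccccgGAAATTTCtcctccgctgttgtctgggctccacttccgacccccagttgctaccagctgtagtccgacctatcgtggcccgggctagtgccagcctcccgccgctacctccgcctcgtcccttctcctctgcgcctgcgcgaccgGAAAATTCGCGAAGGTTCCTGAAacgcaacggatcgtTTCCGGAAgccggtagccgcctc
HSPA5 promoter: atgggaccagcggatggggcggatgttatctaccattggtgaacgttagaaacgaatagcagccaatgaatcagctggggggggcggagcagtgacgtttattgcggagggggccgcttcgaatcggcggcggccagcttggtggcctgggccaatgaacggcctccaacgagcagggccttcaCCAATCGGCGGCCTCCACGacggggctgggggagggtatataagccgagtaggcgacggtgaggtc
HSP90B1 promoter: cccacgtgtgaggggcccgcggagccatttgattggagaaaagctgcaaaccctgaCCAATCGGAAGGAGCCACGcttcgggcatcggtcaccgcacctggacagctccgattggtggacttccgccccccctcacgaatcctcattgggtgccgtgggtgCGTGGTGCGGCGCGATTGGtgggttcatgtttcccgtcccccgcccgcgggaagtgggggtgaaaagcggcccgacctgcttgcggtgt

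The HSPA1A and HSPA1B promoters were identical at 235 of 249 aligned bases (94.4%), with a longest shared stretch of 49 bases, and each held 1 heat shock element pair, starting 106 and 105 bases before the start. HSPA8 held 4 pairs, at 230, 225, 55 and 50 bases before its start, and CHORDC1 held 6, with overlapping ones at 60, 55, 50 and 45 bases. HSPA5 held an ER stress element at 66 bases, and HSP90B1 held 2, at 194 and 89 bases. RefSeq promoter windows, here 250 bases before to 50 after the start, were found for 36 of the 40 members. HSPA14, CRYAB, FKBP4 and HSF1 had no entry.

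Both strands of these windows were searched. The pair GAANNTTC or TTCNNGAA was in 16 of the 36 members (44.4%), against 16.2% of 27305 genes and 13.5% of 35116 windows. It was in 14 of 23 cytosolic members and in 0 of 8 ER members. The longer element, GAANNTTCNNGAA or TTCNNGAANNTTC, which contains the pair, was in 7 members (19.4%): CHORDC1, DNAJA1, DNAJB6, HSP90AA1, HSP90AB1, HSPA8 and the mitochondrial HSPD1. It was in 0.608% of genes and 0.49% of windows. The ER stress element was found in HSPA5 and HSP90B1, and in 25 genes in all (0.0916% of genes, 0.0769% of windows). A match describes letters in a window and shows no binding, and a missing match does not show that an element is absent.

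The deposited libraries held 63003121 reads for MSI1, 62892722 for SRRM3, 60288244 for SRRM4 and 62083851 for the empty vector. Each induced gene was highest in its own library, with MSI1 at 62.4 cRPKM against 8.38 in the empty vector library, SRRM3 at 38.5 against 0.49 and SRRM4 at 63.8 against 0.39. Here cRPKM is the authors' read density per gene, scaled to library size and to a length implied by the counts, taken up below with HSPA1A. Of markers of other cell types, 1 of 5 fibroblast genes (COL1A1, between 3.23 and 4.29 cRPKM, highest in the MSI1 library), 0 of 4 blood genes and 0 of 2 pluripotency genes averaged at least 1 cRPKM.

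Chaperones took close to 2% of the reads of every library. Summed over all members, they held 2.09% of reads in the MSI1 library, 1.76% in SRRM3 and 2.02% in SRRM4, against 1.96% in the empty vector library. The cytosolic members gave most of this, with 1.55%, 1.24% and 1.45% in the MSI1, SRRM3 and SRRM4 libraries, against 1.37% in the empty vector library. The cytosolic sum was thus highest in MSI1 and lowest in SRRM3. The ER sum did not follow it, at 0.303%, 0.302% and 0.314% in the MSI1, SRRM3 and SRRM4 libraries, against 0.340% in the empty vector library, which was the highest. For the mitochondrial members the sums were 0.233%, 0.213% and 0.249%, against 0.242% in the empty vector library, with SRRM3 again the lowest.

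As ratios of summed counts scaled to depth, the MSI1 library stood at 1.13 (95% interval 1.13 to 1.14) of the empty vector library for cytosolic members and at 0.890 (0.885 to 0.896) for ER members. SRRM3 stood at 0.907 (0.904 to 0.910) for cytosolic, 0.888 (0.882 to 0.893) for ER and 0.878 (0.871 to 0.884) for mitochondrial members. SRRM4 stood at 1.06 (1.06 to 1.07), 0.921 (0.915 to 0.927) and 1.03 (1.02 to 1.03). Without HSPA1A and HSPA1B the cytosolic ratios were 1.13 in MSI1, 0.918 in SRRM3 and 1.05 in SRRM4. That pair held 50960 of the 848463 cytosolic reads in the empty vector library, so leaving it out could change the sums of reads little. By summed cRPKM the pair held 25.1% of the cytosolic value in that library, 27.4% in MSI1 and 28.2% in SRRM4. Its cRPKM rest on short implied lengths, given below, so its weight depends on the measure. HSP90AA1 and HSP90AB1 held 277600 and 195896 of the cytosolic reads in the empty vector library and were not left out. Of the 211308 ER reads in that library HSP90B1 held 102576 and was not left out either, so the ER sums rest largely on 1 gene. All intervals are exact Clopper-Pearson intervals of a count ratio and cover counting error only. They compare single libraries, not conditions, and all 3 ratios share the empty vector library.

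**Figure D1:**
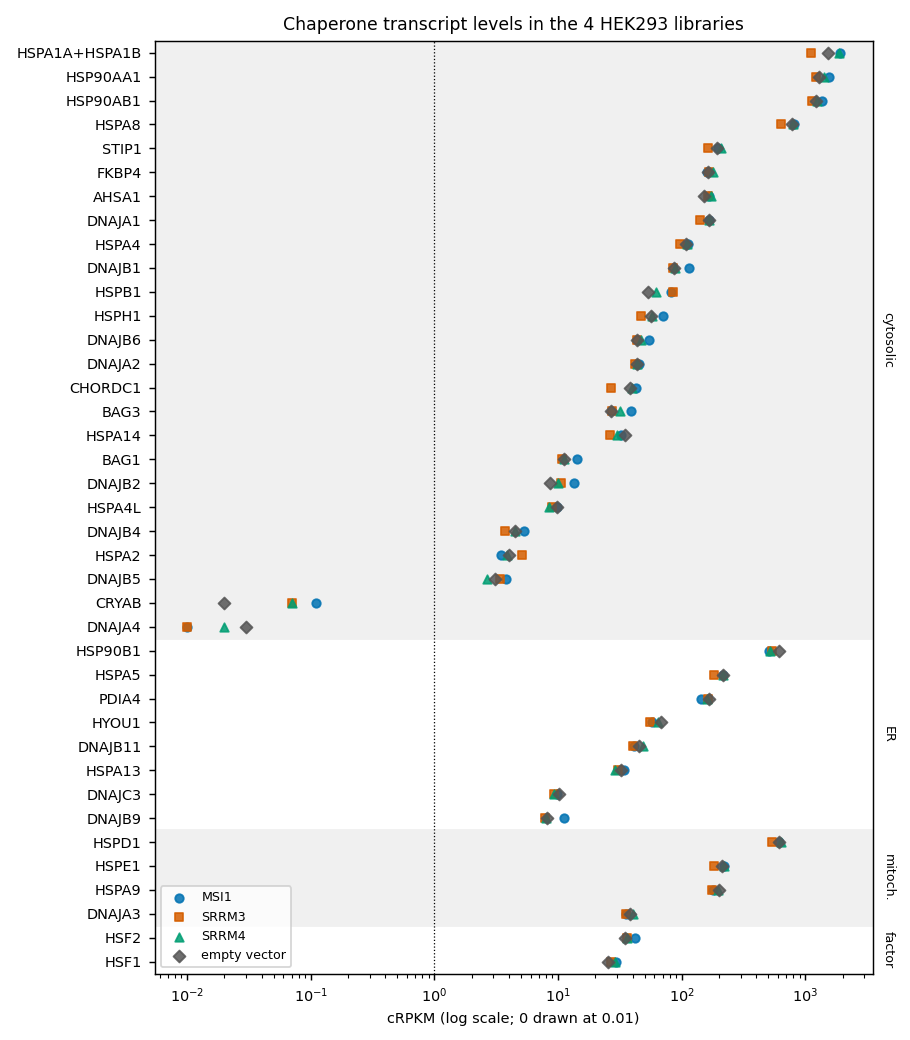
Transcript level in cRPKM (log axis, 0 drawn at 0.01) of each chaperone gene in the MSI1, SRRM3, SRRM4 and empty vector libraries, 1 point per library, grouped by compartment with the mitochondrial genes and the transcription factors at the bottom and a dotted line at 1 cRPKM. The points run from 0 for DNAJA4 to 1902 cRPKM for the summed HSPA1A and HSPA1B, a pair whose values rest on a short implied length, while the 4 libraries lie close together for most genes.

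Levels between members differed far more than levels between libraries. Among genes whose counts and cRPKM imply the length of an annotated transcript, less 49 bases, the cytosolic HSP90 genes were the highest. The cRPKM of the inducible HSP70 pair, HSPA1A and HSPA1B, rest on short implied lengths, given with their values, so the pair is not ranked against other genes. The lens and muscle small heat shock protein CRYAB had 0.11, 0.07 and 0.07 cRPKM in the MSI1, SRRM3 and SRRM4 libraries, against 0.02 in the empty vector library. These are 7, 4, 4 and 1 reads, so no fold is given. The J protein gene DNAJA4 had 1, 1 and 4 reads, against 5 in the empty vector library. Both stayed under the mean of 1 cRPKM that a gene needed to be compared. HSPA1A and HSPA1B were summed, since they share most of their sequence, which left 37 chaperone genes to compare, counting the pair as 1. Between the highest and the lowest library these 37 differed by 1.08-fold (DNAJA2) to 1.72-fold (the HSPA1 pair), and no member reached a 2-fold difference in any comparison. Among all genes the 2-fold rule called 0.299% higher and 0.37% lower in MSI1, 0.582% and 0.299% in SRRM3, and 0.551% and 0.22% in SRRM4, each over the empty vector. It called 0.276% higher and 0.236% lower in SRRM4 over SRRM3, and 0.764% and 0.433% in SRRM3 over MSI1.

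A member was called when its cRPKM + 0.5 was at least 25% higher, or lower by the same fold (20%), and the 95% interval of its count ratio excluded 1. On the log2 scale this threshold is 0.322. The added 0.5 understates differences of low genes. Against the empty vector, MSI1 had 6 of 37 members higher (HSPA1A with HSPA1B, HSPB1, DNAJB1, DNAJB2, BAG3 and DNAJB9) and 0 lower, where the same rule called 6.59% of 12705 genes higher and 4.12% lower. SRRM3 had 1 higher (HSPB1) and 3 lower (HSPA1A with HSPA1B, HSPA14 and CHORDC1), against 5.47% of genes higher and 3% lower. SRRM4 had 0 higher and 0 lower, against 2.29% and 2.15% of genes. As shares of the 37, where 1 gene is 2.7%, MSI1 had 16.2% higher and SRRM3 had 8.11% lower (3 genes), against 6.59% and 3% of all genes. The SRRM4 line had no call, but its backgrounds were below the share of 1 gene, so this does not set the members apart. DNAJB9 was the only ER member among the calls over the empty vector. No mitochondrial member and neither transcription factor was called in any of the 3. These groups hold 4 and 2 genes, too few for a lack of calls to set them apart from all genes.

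Many members differed by less than this, so the counts were repeated with a 1.1-fold rule, chosen after the values were seen. MSI1 then had 17 members higher (all genes 22.2%) and 5 lower (16.7%), and 14 of the 17 were cytosolic. SRRM3 had 3 higher (19.2%) and 16 lower (16.5%), and these 16 were 9 cytosolic, 4 ER and 3 mitochondrial members. SRRM4 had 6 higher (11.7%) and 5 lower (13.5%). With a stricter 1.5-fold rule and the same interval, MSI1 had 2 higher (HSPB1 and DNAJB2; all genes 1.46%) and 0 lower (0.763%), SRRM3 had 1 higher (HSPB1; 1.45%) and 0 lower (0.464%), and SRRM4 had 0 higher (0.748%) and 0 lower (0.252%).

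**Figure D2:**
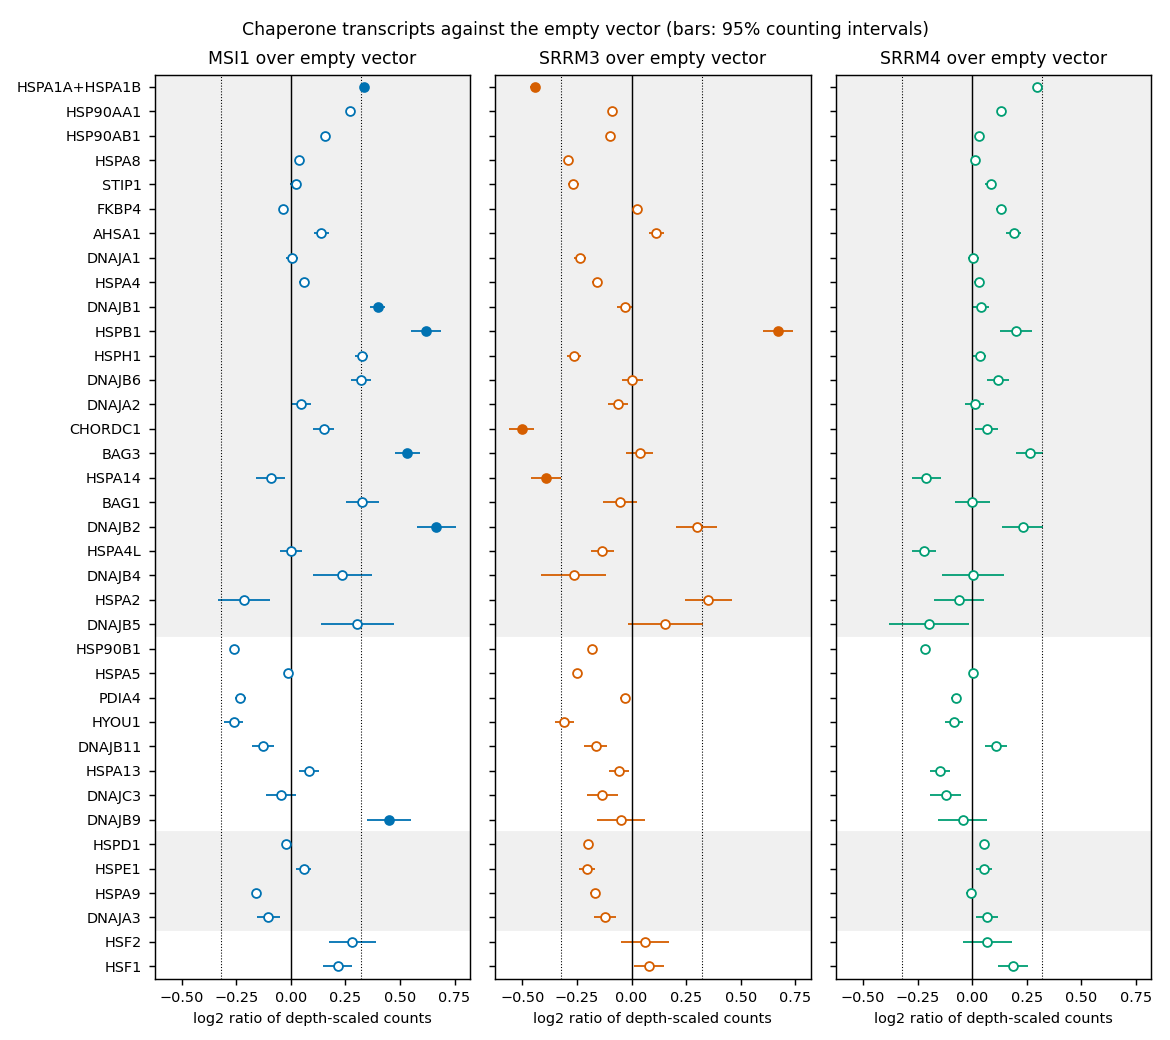
Log2 ratio of depth-scaled counts of each of the 37 chaperone genes in the MSI1, SRRM3 and SRRM4 libraries over the empty vector library, with 95% counting intervals as bars, dotted lines at the 25% threshold and filled points for calls. In MSI1 the filled points are 6 genes to the right; in SRRM3 they are HSPB1 to the right and 3 genes to the left; in SRRM4 there are none.

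HSPA1A and HSPA1B encode the inducible cytosolic HSP70. HSPA1A (ENSG00000204389, GRCh38 chromosome 6, 31815464 to 31817946 in GENCODE 29, like all gene positions here) had 1001, 591 and 1037 cRPKM in the MSI1, SRRM3 and SRRM4 libraries, against 858 in the empty vector library. HSPA1B (ENSG00000204388, 31827735 to 31830255), which starts 9788 bases beyond the end of HSPA1A, had 902, 517 and 820.1 cRPKM, against 652 in the empty vector library. Both copies were lowest in SRRM3 and higher in MSI1 and in SRRM4 than in the empty vector library. Their sum was 1902, 1108 and 1857 cRPKM, against 1510.5 in the empty vector library. The MSI1 ratio was 1.26 (1.248 to 1.278), the SRRM3 ratio 0.735 (0.726 to 0.745) and the SRRM4 ratio 1.23 (1.22 to 1.24). The MSI1 call sits close to the threshold, at a log2 fold of 0.332, and was lost when folds were centred on the median gene (0.317) or scaled by TMM factors (0.321).

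The HSPA1A share of the pair was 52.6%, 53.3% and 55.8% in the MSI1, SRRM3 and SRRM4 libraries, against 56.8% in the empty vector library. Taken alone, HSPA1A stood at 1.17 in MSI1 and HSPA1B at 1.38, both over the empty vector. How reads shared by the copies were assigned was not given in the sources used here. Together, their counts and cRPKM imply a length of 527 bases for HSPA1A, whose transcript has 2483, and of 565 for HSPA1B, whose transcript has 2521. Of the stretches of 50 bases in each transcript, 27.4% in HSPA1A and 28.6% in HSPA1B occur in no other member nor in HSPA1L, so the split between the copies is uncertain. Their cRPKM can be compared between libraries. For 27 of the 38 members with a mean of at least 1 cRPKM, the implied length was within 5 bases of a transcript length less 49. A transcript holds that many stretches of 50 bases. The pair's implied lengths were nearer to its stretches found in no other member nor in HSPA1L, 668 and 706. How cRPKM was corrected is not known here, so neither the pair's cRPKM nor its reads are ranked against other genes. By reads, the pair had 65314, 37957 and 60888 in the MSI1, SRRM3 and SRRM4 libraries, against 50960 in the empty vector library.

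HSPA8, the constitutive HSP70 of every cell (chromosome 11, 123057489 to 123063230), had 801, 638 and 789 cRPKM in the MSI1, SRRM3 and SRRM4 libraries, against 782 in the empty vector library. It was low in SRRM3, at 0.816 (0.809 to 0.823) of the empty vector, and close to it in the other lines. By reads, HSPA8 had 121877, 96846 and 114856, against 117126 in the empty vector library. The implied length of HSPA8 was 2414 bases, so its reads cannot be ranked against those of the inducible pair. HSPA14, a ribosome-linked HSP70 (chromosome 10, 14838164 to 14871741), had 32.4, 26.3 and 29.9 cRPKM, against 34.5 in the empty vector library. It was highest in the empty vector library and called lower in SRRM3, at 0.763 (0.727 to 0.800). HSPA2, the testis-enriched HSP70, ran the other way at a low level, with 3.45, 5.11 and 3.84 cRPKM, against 4.0 in the empty vector library. Its SRRM3 ratio of 1.275 (1.18 to 1.37) missed the call only because of the added 0.5, with a log2 fold of 0.318.

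**Figure D3:**
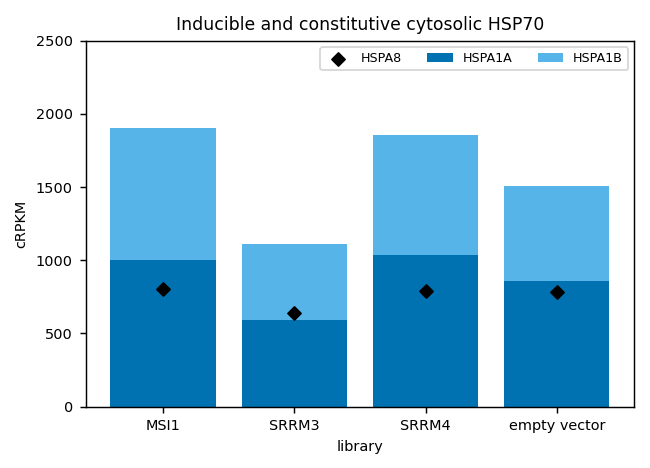
Level in cRPKM of HSPA1A and HSPA1B, stacked, with HSPA8 as diamonds, in the MSI1, SRRM3, SRRM4 and empty vector libraries (1 library each). The stacked bars reach 1902, 1108, 1857 and 1510.5 cRPKM, and HSPA8 is lowest in SRRM3 at 638 cRPKM. Bars and diamonds are to be read across libraries only, since the pair's implied lengths are short.

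The HSP110 proteins, nucleotide exchange factors of HSP70, were represented in the cytosol by HSPH1, HSPA4 and HSPA4L. HSPH1 (HSP105) had 70.5, 46.9 and 57.7 cRPKM in the MSI1, SRRM3 and SRRM4 libraries, against 56.3 in the empty vector library. Its MSI1 ratio of 1.252 (1.227 to 1.276) lay just under the threshold at a log2 fold of 0.321, and its SRRM3 ratio was 0.833 (0.815 to 0.852). HSPA4 ranged from 97.2 to 113 cRPKM and HSPA4L from 8.43 to 9.82 cRPKM, with no call.

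Among the BAG proteins, BAG3, which links HSP70 to small heat shock proteins and to autophagy, had 38.5, 27.3 and 31.9 cRPKM in the MSI1, SRRM3 and SRRM4 libraries, against 26.6 in the empty vector library. The MSI1 ratio was 1.45 (1.39 to 1.51), and the SRRM4 ratio was 1.20 (1.15 to 1.251). BAG1, which couples HSP70 to the proteasome, had 14.1, 10.8 and 11.2 cRPKM, against 11.2 in the empty vector library. It stood apart in MSI1 alone, at 1.26 (1.19 to 1.32), just short of a call at a log2 fold of 0.316.

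The J proteins gave both the widest MSI1 ratio and members with hardly any difference. DNAJB2, a neuronal J protein with a ubiquitin-binding part (chromosome 2, 219279267 to 219286900), had 13.6, 10.5 and 10.0 cRPKM in the MSI1, SRRM3 and SRRM4 libraries, against 8.55 in the empty vector library. All 3 lines were above the empty vector, at ratios of 1.59 (1.49 to 1.69) in MSI1, 1.23 (1.15 to 1.31) in SRRM3 and 1.17 (1.098 to 1.254) in SRRM4. DNAJB1, the main heat-inducible J protein (chromosome 19, 14514770 to 14529770), had 114, 84.6 and 88.8 cRPKM, against 86.25 in the empty vector library. Only the MSI1 library stood apart, at 1.32 (1.29 to 1.35). The annotated span of DNAJB1, introns included, overlaps that of TECR on the opposite strand over 12686 bases. TECR lay between 114 and 121 cRPKM, and the sources used here do not say whether counting used strand. DNAJB4 had 5.29, 3.74 and 4.51 cRPKM, against 4.5 in the empty vector library, with SRRM3 the lowest. Of the remaining cytosolic J proteins, DNAJA2 kept within 41.6 to 44.8 cRPKM and DNAJB5 within 2.68 to 3.79. DNAJA1 was between 140.1 cRPKM (SRRM3) and 166 cRPKM (SRRM4), and DNAJB6 between 54.3 cRPKM (MSI1) and 43.4 cRPKM (empty vector).

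HSP90 itself differed less. HSP90AA1, the inducible form, had 1557, 1214 and 1417 cRPKM in the MSI1, SRRM3 and SRRM4 libraries, against 1292 in the empty vector library. The MSI1 ratio was 1.21 (1.20 to 1.21), the SRRM3 ratio 0.939 (0.934 to 0.944) and the SRRM4 ratio 1.097 (1.091 to 1.103), none a call. HSP90AB1, the constitutive form, had 1353, 1136 and 1242 cRPKM, against 1216 in the empty vector library. The inducible form made up 53.5%, 51.6% and 53.3% of the pair in the MSI1, SRRM3 and SRRM4 libraries, against 51.5% in the empty vector library.

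Its co-chaperones differed among themselves. CHORDC1 (chromosome 11, 90201160 to 90223364), whose promoter is printed above, had 42.3, 26.9 and 39.9 cRPKM in the MSI1, SRRM3 and SRRM4 libraries, against 38.1 in the empty vector library. SRRM3 stood well below the other 3 libraries, at 0.706 (0.679 to 0.734) of the empty vector, its lowest ratio among the 37 members. STIP1 (HOP), which holds HSP70 and HSP90 together, had 197, 161.5 and 206 cRPKM, against 194 in the empty vector library, and was again low only in SRRM3, at 0.831 (0.817 to 0.847). AHSA1, the activator of the HSP90 ATPase, lay between 151 and 172 cRPKM, and FKBP4, a prolyl isomerase of steroid receptor complexes, between 161 and 180.1 cRPKM. Neither was low in SRRM3.

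HSPB1 (HSP27, ENSG00000106211), a small heat shock protein that holds unfolded proteins without ATP, was the only member called higher in SRRM3 over the empty vector. It had 82.1, 85.1 and 61.4 cRPKM in the MSI1, SRRM3 and SRRM4 libraries, against 53.5 in the empty vector library. The MSI1 and SRRM3 libraries were high, at ratios of 1.54 (1.46 to 1.61) and 1.59 (1.52 to 1.67), and SRRM4 was between, at 1.15 (1.09 to 1.21). HSPB1 lies on chromosome 7, 76302544 to 76304295, 15255 bases beyond the end of SRRM3 on the same strand. SRRM3 was at 0.61 cRPKM in the MSI1 library and 1.39 in the SRRM4 library, against 0.49 in the empty vector library. Its 38.5 cRPKM in the SRRM3 library does not separate the construct from the gene on chromosome 7. Whether the position near SRRM3 bears on the level of HSPB1 was not tested.

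Many ER chaperone genes are known targets of the unfolded protein response, whose activity was not measured here. The empty vector library was the highest for 4 of the 8 ER members, named below. HSPA5 (BiP), the ER HSP70, had 214, 181 and 216 cRPKM in the MSI1, SRRM3 and SRRM4 libraries, against 216 in the empty vector library, and was low in SRRM3 alone, at 0.841 (0.831 to 0.852). HSP90B1 (GRP94), the ER HSP90, had 505, 535 and 522 cRPKM, against 606 in the empty vector library. All 3 lines were below the empty vector for HSP90B1, at 0.834 (0.826 to 0.841) in MSI1, 0.883 (0.875 to 0.891) in SRRM3 and 0.861 (0.853 to 0.869) in SRRM4. HSPA5 and HSP90B1, which both hold the ER stress element, did not move in parallel: HSPA5 was at 0.423, 0.339 and 0.414 times HSP90B1, against 0.356 times in the empty vector library.

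DNAJB9 (ERdj4), a J protein of BiP and of ER-associated degradation, was the ER member that MSI1 had higher. It had 11.2, 7.89 and 7.92 cRPKM in the MSI1, SRRM3 and SRRM4 libraries, against 8.16 in the empty vector library, with an MSI1 ratio of 1.37 (1.27 to 1.47). Only the MSI1 value stands off from the others. HYOU1 (GRP170), an exchange factor of BiP, ranged from 55.3 cRPKM in SRRM3 to 68.5 in the empty vector library. PDIA4, a disulfide isomerase, ranged from 143 cRPKM in MSI1 to 168 in the empty vector library. The ER J proteins DNAJB11 (40.2 to 48.7 cRPKM) and DNAJC3 (9.28 to 10.2 cRPKM) and the HSP70-like HSPA13 (28.9 to 33.9 cRPKM) gave no call. The empty vector library was the highest of the 4 for 4 of the 8 ER members (HSP90B1, DNAJC3, HYOU1 and PDIA4), as for 18.5% of all genes.

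The mitochondrial members were lowest in SRRM3 in 4 of 4 cases, but for HSPA9 and DNAJA3 the interval of SRRM3 over MSI1 included 1. HSPD1 (HSP60), the chaperonin of the matrix, had 606, 536 and 638 cRPKM in the MSI1, SRRM3 and SRRM4 libraries, against 615 in the empty vector library. Its co-chaperonin HSPE1 (HSP10) had 220.4, 184 and 219.6 cRPKM, against 212 in the empty vector library. The SRRM3 ratios of these partners were 0.871 (0.863 to 0.879) and 0.868 (0.845 to 0.891). The 2 genes are known to share a bidirectional promoter. Their annotated spans, introns included, overlap on opposite strands over 3464 bases. How far their exons overlap was not measured, and reads from any shared exon cannot be told apart unless counting used strand. HSPA9 (mortalin), the matrix HSP70, had 178, 177 and 198 cRPKM, against 199 in the empty vector library. The MSI1 and SRRM3 libraries were low for HSPA9, and SRRM4 was level with the empty vector. DNAJA3, its J protein, lay between 35.1 and 40.1 cRPKM.

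HSF1, the main regulator of the heat shock response, had 29.2, 26.6 and 28.7 cRPKM in the MSI1, SRRM3 and SRRM4 libraries, against 25.2 in the empty vector library. All 3 lines exceeded the empty vector, at ratios of 1.16 (1.11 to 1.22) in MSI1, 1.06 (1.008 to 1.11) in SRRM3 and 1.14 (1.09 to 1.20) in SRRM4, none a call. HSF2 was highest in MSI1, at 1.22 (1.13 to 1.31) of the empty vector. Its counts and cRPKM imply a length of 593 bases, so its level cannot be set beside that of HSF1. HSF1 activity depends on its release from chaperones and its phosphorylation, which transcript levels do not measure.

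**Figure D4:**
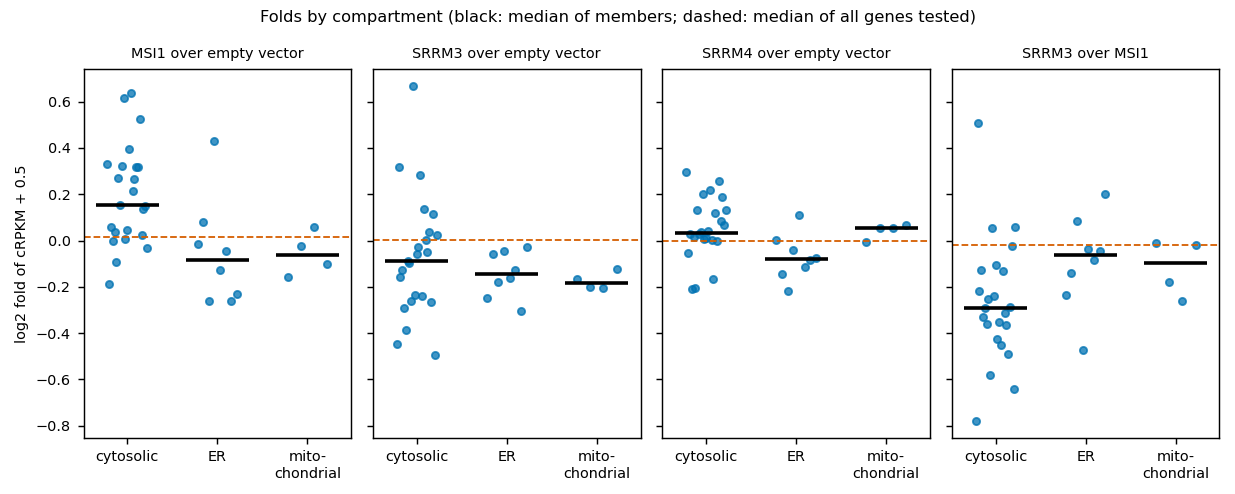
Log2 fold of cRPKM + 0.5 of cytosolic (23), ER (8) and mitochondrial (4) members, 1 point per gene, in MSI1, SRRM3 and SRRM4 over the empty vector and in SRRM3 over MSI1, with black bars at the members' median and a dashed line at the median of all genes compared. Cytosolic medians are 0.15 in MSI1 and -0.09 in SRRM3, while ER medians are -0.09 and -0.14.

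Set by compartment, the cytosolic members had a median log2 fold of 0.15 in MSI1 over the empty vector, with 19 of 23 above 0, where all genes had a median of 0.02. The ER members had a median of -0.09 and the mitochondrial members of -0.06, with 6 of 8 and 3 of 4 below 0. In SRRM3 over the empty vector the medians were -0.09 for cytosolic, -0.14 for ER and -0.18 for mitochondrial members, against 0.00291 for all genes. Below 0 were 15 of 23, 8 of 8 and 4 of 4. In SRRM4 they were 0.03, -0.08 and 0.05, against -0.00348 for all genes. All of these medians are small beside the threshold of 0.322.

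Cytosolic members were also split by the heat shock element in their promoter windows. The 12 cytosolic genes with the pair and a level to compare, HSPA1A and HSPA1B counted as 1, had a median log2 fold of -0.18 in SRRM3 over the empty vector, and the 9 without it had 0.04. The ranges overlapped, from -0.50 (CHORDC1) to 0.67 (HSPB1) with the motif and from -0.26 to 0.32 without it. In MSI1 the medians were 0.18 with it and 0.27 without it, and in SRRM4 they were 0.05 and 0.03. Genes without it lack only an exact match in these windows, and an element elsewhere or with other letters would be missed. Split by the longer element instead, the 6 with it and the 15 without it had medians of -0.17 and -0.05 in SRRM3, of 0.15 and 0.27 in MSI1 and of 0.05 and 0.04 in SRRM4, so the SRRM3 gap was narrower than with the pair and close to that in MSI1.

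The lines were also set against each other. SRRM3 and SRRM4 are related proteins, and SRRM4 over SRRM3 gave 3 members higher (HSPA1A with HSPA1B, STIP1 and CHORDC1) and 2 lower (HSPA2 and HSPB1), where the rule called 3.1% of 12704 genes higher and 6.04% lower. The HSPA1 pair was at 1857 cRPKM in SRRM4 against 1108 in SRRM3, a ratio of 1.67 (1.65 to 1.70). CHORDC1 was at 1.48 (1.43 to 1.54), STIP1 at 1.28 (1.254 to 1.30), HSPB1 at 0.721 (0.689 to 0.755) and HSPA2 at 0.752 (0.697 to 0.811). The mitochondrial members were all above 0, with a median log2 fold of 0.22 and ratios of 1.12 to 1.195. The ER members were split: HSPA5 at 1.19 (1.18 to 1.21), DNAJB11 at 1.21 (1.17 to 1.253) and HYOU1 at 1.17 (1.13 to 1.21) were as high as the mitochondrial members, and the other 5 lay between 0.941 and 1.01. The ER median was therefore 0.01, and their mean 0.07. With the 1.1-fold rule 18 members were higher (all genes 15.9%) and 3 lower (20%), and with the 1.5-fold rule 1 was higher (the HSPA1 pair; 0.535%) and 0 lower (1.08%).

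SRRM3 over MSI1 gave the most calls of the 5 comparisons. There were 11 members lower and 1 higher (HSPA2), where the rule called 6.48% of 12704 genes lower and 7.29% higher. The 11 were the HSPA1 pair, HSPA8, HSP90AA1, HSPH1, DNAJB1, DNAJB2, DNAJB4, BAG1, BAG3, CHORDC1 and DNAJB9, so 10 of the 23 cytosolic members, 1 of 8 ER members and 0 of 4 mitochondrial members. The ER and mitochondrial groups are too small for these counts to set them apart from all genes. The HSPA1 pair was at 1108 cRPKM in SRRM3 against 1902 in MSI1, a ratio of 0.582 (0.575 to 0.590). CHORDC1 was at 0.636 (0.612 to 0.661), HSPH1 at 0.666 (0.652 to 0.680), DNAJB4 at 0.707 (0.641 to 0.781) and BAG3 at 0.709 (0.681 to 0.737). HSPB1 did not take part, at 1.04 (0.995 to 1.08). Of the cytosolic members 20 of 23 were below 0, with a median log2 fold of -0.29 against -0.02 for all genes. The ER median was -0.06. With the 1.1-fold rule 22 members were lower (all genes 23.6%) and 2 higher (20.2%), and with the 1.5-fold rule 2 were lower (the HSPA1 pair and CHORDC1; 1.28%) and 0 higher (2.04%).

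**Figure D5:**
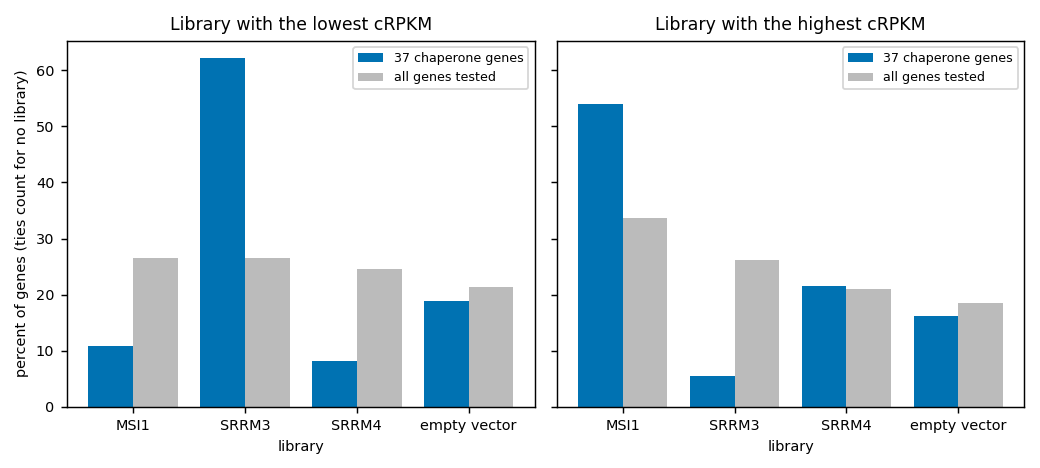
Percentage of the 37 chaperone genes and of all genes compared for which each library had the lowest (left) or the highest (right) cRPKM, where a value shared by libraries counts for none of them. SRRM3 was the lowest library for 62.2% of the chaperone genes and 26.6% of all genes, and MSI1 the highest for 54.1% and 33.6%.

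The order of the 4 libraries gives the same picture gene by gene. SRRM3 was the lowest library for 23 of 37 members (62.2%), against 26.6% of all genes and 28.8% of genes with a mean of at least 5 cRPKM. These were 14 of 23 cytosolic, 5 of 8 ER and 4 of 4 mitochondrial members. The ranks take no account of counting error, and some rest on near ties. DNAJB9 was at 7.89 cRPKM in SRRM3 against 7.92 in SRRM4, and HSPA9 at 177 in SRRM3 against 178 in MSI1. MSI1 was the highest library for 20 members (54.1%), against 33.6% of all genes and 33.5% of those with a mean of at least 5 cRPKM, and 15 of the 20 were cytosolic. HSPA4L, at 9.82 cRPKM in both the MSI1 and the empty vector library, counts for neither. SRRM3 was the highest for 2 members, HSPA2 and HSPB1 (26.1% of all genes), SRRM4 for 8 (21%) and the empty vector for 6 (18.5%). MSI1 was the lowest for 4 (26.5%), SRRM4 for 3 (24.5%), namely HSPA4L, DNAJB5 and HSPA13, and the empty vector for 7 (21.3%). The members share each library, so these counts describe 4 libraries and not independent genes.

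Related genes outside the 40 were taken from 9 lists of the same systems, and the calls named are over the empty vector. Over the empty vector, the rule called 6.59% of all genes higher and 4.12% lower in MSI1, and 5.47% and 3% in SRRM3. In SRRM4 it called 2.29% and 2.15%. For SRRM4 over SRRM3 the shares were 3.1% and 6.04%, and for SRRM3 over MSI1 they were 7.29% and 6.48%. At such shares, 0 or 1 call in a short list does not set the list apart. The TRiC chaperonin (8 genes compared), which folds actin and tubulin, and the proteasome (31) had 0 calls in any of the 5 comparisons. Their medians over the empty vector were -0.08 and 0.07 in MSI1, -0.13 and -0.01 in SRRM3, and 0.06 and 0.01 in SRRM4. Prefoldin, which delivers to TRiC, had 1 of 6 lower in SRRM3 over the empty vector, PFDN4 at 0.757 (0.704 to 0.813). Of 17 further cytosolic J proteins, DNAJC2, which acts at the ribosome, was the 1 call, lower in MSI1 at 0.793 (0.759 to 0.830). Of 18 further cofactors of HSP70 and HSP90, HSPBP1, an HSP70 exchange factor, was higher in MSI1 at 1.30 (1.24 to 1.36), and AHSA2P was higher in SRRM4 at 1.32 (1.20 to 1.45). AHSA2P was near this in the other lines, at 1.27 (1.16 to 1.39) in MSI1 and 1.23 (1.12 to 1.35) in SRRM3, neither a call.

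Among further small heat shock proteins 1 of 7 measured genes passed the level filter, HSPB8, the partner of BAG3. HSPB8 had 11.2, 3.24 and 5.32 cRPKM in the MSI1, SRRM3 and SRRM4 libraries, against 4.72 in the empty vector library. It was high in MSI1, at 2.36 (2.15 to 2.60), and low in SRRM3, at 0.688 (0.606 to 0.779) of the empty vector, and SRRM3 was at 0.291 of MSI1. No member among the 37 had so wide a span.

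The further ER and mitochondrial lists held 0 or 1 call per list and line over the empty vector. The shares of all genes given above also leave few calls in lists of this size. ER folding enzymes (18) had 0 calls in MSI1 and 1 lower in each of SRRM3 and SRRM4, FKBP14 in both. Of 19 genes of the unfolded protein response and of ER-associated degradation, 1 was called over the empty vector. It was HERPUD1, a degradation factor, which had 26.9, 16.5 and 15.7 cRPKM in the MSI1, SRRM3 and SRRM4 libraries, against 15.2 in the empty vector library, with an MSI1 ratio of 1.77 (1.69 to 1.86). The transcription factor XBP1 was at 1.24 (1.20 to 1.28) in MSI1, no call. Mitochondrial folding factors and proteases (16) had LONP1 higher in MSI1 at 1.26 (1.23 to 1.29) and DNAJC15 lower in SRRM3 at 0.676 (0.600 to 0.762).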

How the data were processed

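PolyA-selected RNA of 4 HEK293 lines was measured, 1 library each, grouped by the labelled construct. For each gene the authors deposited a whole-number read count and a value that the file names call cRPKM, read here as a corrected RPKM. Reads were placed on hg38 (GRCh38), per the submitters' processing notes. The aligner and the handling of strand and of shared reads were not given in the sources used here. Per the labels the libraries are stranded.

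Coordinates come from GENCODE 29 and symbols from a reference table, which matched 39633 of 40188 genes. HSPA1A and HSPA1B were summed. Genes with a mean of at least 1 cRPKM were compared (12706, less the induced genes). Folds are log2(cRPKM + 0.5), and intervals are exact conditional Clopper-Pearson 95% intervals of depth-scaled count ratios. Reads are not independent molecules, so intervals cover only counting error. A count of 3 sets a floor of 0.0476 to 0.0498 CPM. Members and lists were chosen with earlier results of these data known. Values in all libraries are given for the main HSP70, HSP90, chaperonin and HSF1 genes and for every member called, ranges for the rest, and up to 3 genes per related list.

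TMM factors for 1 alternative came from edgeR 4.0.16 in R 4.3.3. Python 3.11.15 was used with scipy 1.17.1, numpy 2.4.6, matplotlib 3.10.9 and pandas 2.3.3.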

Additional observations from a re-analysis of the deposited data

How the results depend on the processing

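With 1 library per group, no setting adds replicate information. No paired analysis was possible because each group has 1 library. The medians by compartment kept their direction and moved little under pseudocounts of 0.1 and 2, without the level filter or with a mean of at least 5 cRPKM, under median centring, TMM-scaled CPM, HSPA1A and HSPA1B as 2 genes, and the mean in place of the median, except that the ER members in SRRM4 over SRRM3 had a mean of 0.0744 against a median of 0.00772. Alternatives for the medians of SRRM4 over SRRM3 were chosen after seeing the data. Counts of members followed the fold rule. At 1.5-fold, MSI1 over the empty vector had 2 members higher (6 by the 25% rule), SRRM3 over the empty vector 0 lower (3), SRRM4 over SRRM3 1 higher (3) and 0 lower (2), and SRRM3 over MSI1 0 higher (1) and 2 lower (11). At 2-fold every count was 0. At 1.1-fold, chosen after seeing the data, MSI1 had 17 higher and 5 lower, SRRM3 3 higher and 16 lower, and SRRM4 6 higher and 5 lower, each over the empty vector; SRRM4 over SRRM3 had 18 higher, and SRRM3 over MSI1 2 higher and 22 lower. A pseudocount of 0.1 gave MSI1 over the empty vector 8 higher members, adding HSPH1 and BAG1, while median centring or TMM factors left 5, without the HSPA1 pair. SRRM3 over the empty vector had 2 higher members with a pseudocount of 0.1 or TMM factors, with HSPA2 added. SRRM4 over the empty vector had 1 higher member with HSPA1A and HSPA1B apart, which is HSPA1B. SRRM4 over SRRM3 had 3 lower with a pseudocount of 0.1 or TMM factors (DNAJB5 added) and 1 lower with a pseudocount of 2 (HSPA2 lost) or a mean of at least 5 cRPKM. SRRM3 over MSI1 had 10 lower without HSPA8 under median centring or TMM factors and without DNAJB2 at a pseudocount of 2; with a mean of at least 5 cRPKM it had 10 lower (DNAJB4 not compared) and 0 higher (HSPA2 not compared). Low members (HSPA2, DNAJB4, DNAJB5) rest on 447 to 1620 reads per library, and CRYAB and DNAJA4 are too low to compare.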
